A study of Gallus gallus with 2 samples.

Results

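The genes described here encode proteins that fold, pack and remodel chromatin: CTCF, the SMC complexes with their kleisin, HEAT-repeat and STAG subunits, the SWI/SNF, ISWI, CHD and INO80 remodellers with the ARID family, the chromobox (CBX) and high mobility group (HMG) proteins, the nuclear lamina and the topoisomerases. Members were chosen by gene symbol, with no expression value in the rule, from genes outside chromosomes 16 and W. Earlier results of these data were known when the choice was made. The rule took 64 genes of the 16464 analysed, and no symbol among them had more than 1 model. They lay on 21 chromosomes, and 5 of them, SMC2, SMC5, SMARCA2, LMNB1 and ARID3C, lay on chromosome Z.

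RNA was measured in 6C2 cells, a transformed chicken erythroleukemia line of red cell precursors. The labels describe the cells as cycling, place their developmental arrest at the stage of the erythroid colony-forming unit, and give no treatment. There was 1 group with 2 samples, replicates 1 and 2 in the text, and no other cell type, stage or control. Levels were therefore described, and no test between groups was possible. Total RNA depleted of ribosomal RNA was sequenced. The titles name 2 cell samples, but nothing in the labels says that separate cultures were used, and the difference between replicates may be technical.

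DNA in a nucleus is wound on nucleosomes and folded into loops. Cohesin extrudes loops that stop at bound CTCF, condensin compacts chromosomes for mitosis, and the lamina tethers inactive chromatin to the nuclear envelope. Remodellers use ATP to slide, evict or exchange nucleosomes. In chicken erythroid cells this machinery has a textbook place, because the insulator upstream of the beta-globin locus, which CTCF, the USF proteins and VEZF1 bind, was worked out in this lineage. Red cells of birds keep a condensed nucleus when mature.

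The gene table held 40064443 reads in replicate 1 and 30668939 reads in replicate 2. Members took 0.376% of the reads of replicate 1 and 0.403% of those of replicate 2, with a median of 1451 and 1212 reads per member. Levels are the deposited RPKM, reads scaled to gene model length and library total, which allows genes of different length to be set side by side. Markers of the labelled cell type were present, with 6 of 6 erythroid genes at a mean RPKM between 52.6 and 1168. T cell markers were at 1 RPKM or more in both samples for 1 of 5 genes, with a summed RPKM of 3.41 and 4.12. B cell, macrophage and fibroblast lists had 1 of 4 genes each at that level, BTK, CTSB and SPARC, which carried summed levels between 90.1 and 120 per list. The other members of these 3 lists were under 2 RPKM in both samples.

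RNA of nearly all members was found in 6C2 cells, at moderate levels. Genes of these families that were not analysed here are not covered by the counts. Of the 64 members, 61 reached an RPKM of 1 in both samples, or 95.3%, against 52.6% of all analysed genes and 61.1% of the 12306 named genes that are neither small RNAs nor mitochondrial. At an RPKM of 10 in both samples the count was 35 members, or 54.7%, against 29.9% of all analysed genes and 35.1% of the named genes. The median member stood at 12.3 RPKM, with medians of 11.3 in replicate 1 and 12.3 in replicate 2, while the median named gene stood at 4.48 and the median of all analysed genes at 1.83. These shares describe a list of mostly long gene models, with a median length of 3498 bp against 1730 bp for the named genes.

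The levels spanned from 0.045 to 117 RPKM, and 38 members had a mean of at least 10. At the top stood HMGB3, HMGN1 and LBR, the members with a mean above 100 RPKM, and then SMARCA5, LMNB2 and SMARCE1 above 50. HMGB3 held fewer reads than HMGN1 and LBR, so its first place rests on its short model of 313 bp. The 3 members under 1 RPKM in both samples were SMC1B, CBX2 and ARID3C. The 29 SWI/SNF, ISWI, ARID, CHD and INO80 genes had a median of 8.70 RPKM and the other 35 members a median of 18.9. The 29 include 6 ARID genes outside SWI/SNF, which had a median of 5.74 and are not all remodellers.

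**Figure D1:**
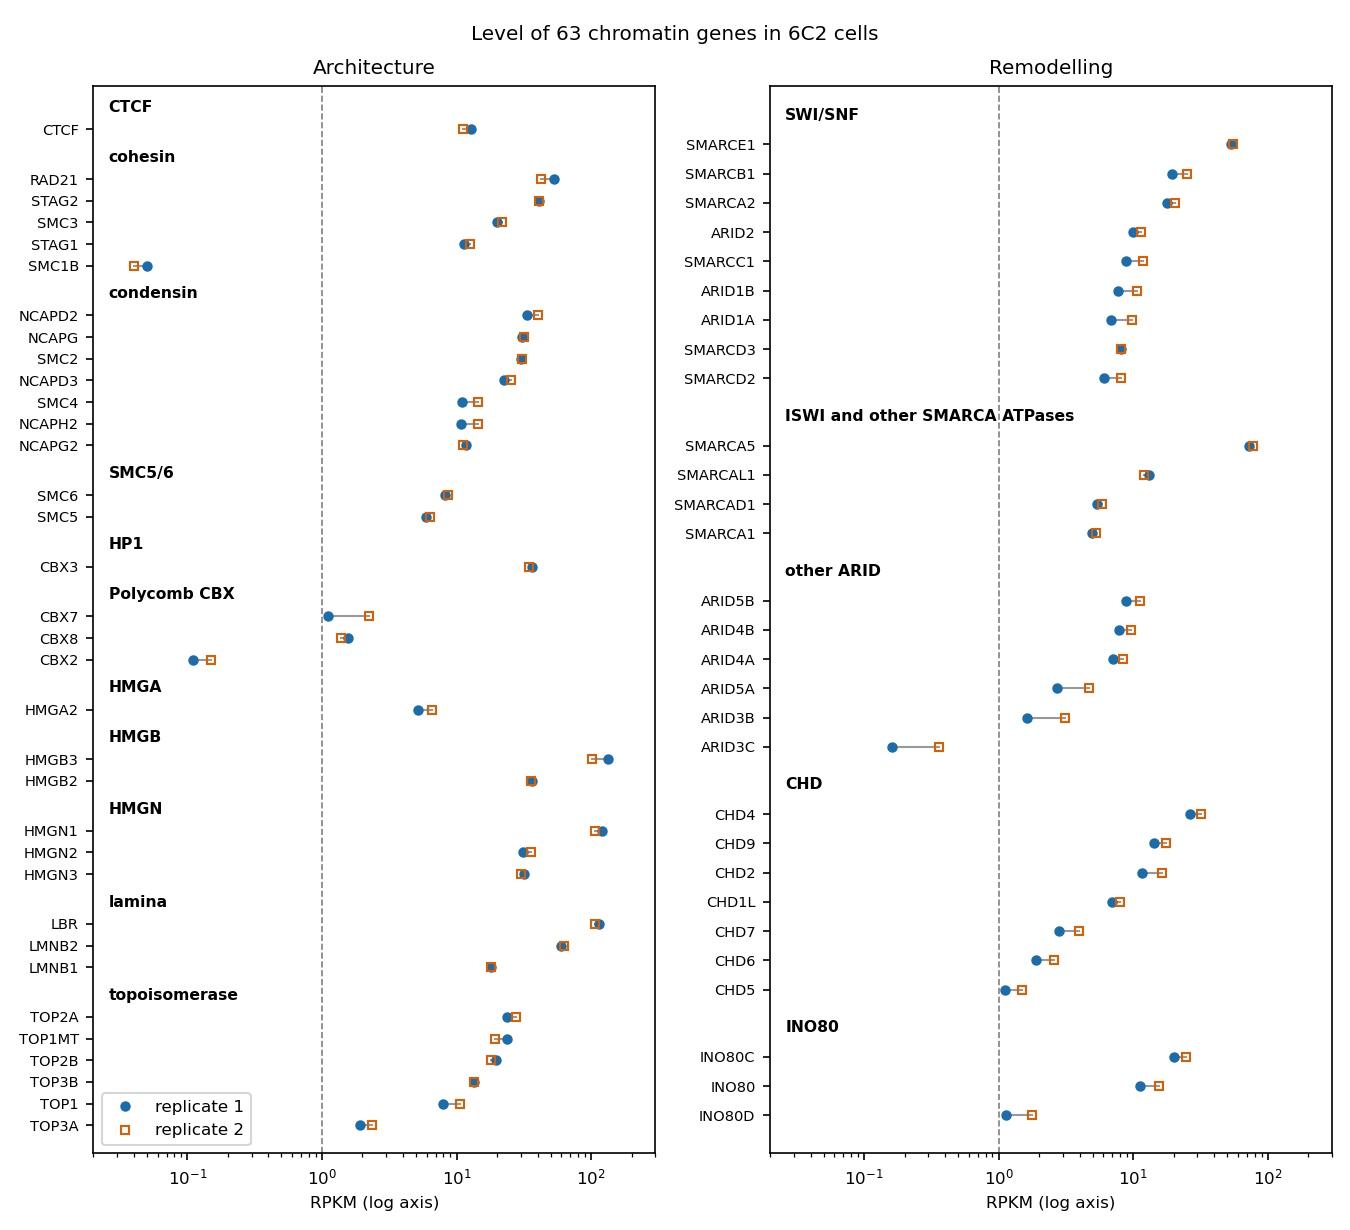
RPKM (log axis) of 63 of the 64 members in replicate 1 (filled circles) and replicate 2 (open squares), grouped by role. Architecture genes are on the left, and remodelling genes together with all ARID genes are on the right. The dashed line marks 1 RPKM, and SMC1B, CBX2 and ARID3C lie left of it in both samples.

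CTCF, the zinc finger protein that marks insulators and loop anchors, stood at 12.8 RPKM in replicate 1 and 11.3 in replicate 2, from 1215 and 822 reads (12 ± 1.05, SD, n = 2). This lies above 67.1% of the named genes and near the middle of the members. The gene is listed on chromosome 11 from 1049566 to 1061478 on the minus strand, with a model of 2400 bp. CTCFL, USF1 and USF2 were not analysed here. VEZF1, another insulator-binding factor of the beta-globin locus, was close to CTCF at 11.7 and 15.4 RPKM, and its range overlapped that of CTCF. Counts of partner genes at 1 RPKM in both samples, here and below, stand beside a share of 61.1% of the named genes. Among the 7 measured genes of a list of insulator partners, all 7 reached 1 RPKM in both samples. NPM1, a nucleolar chaperone that also binds CTCF, led that list at 414 and 288 RPKM, followed by PARP1, a poly(ADP-ribose) polymerase, at 64.8 and 66.6. The lowest were BRD3, a bromodomain reader, at 4.46 and 5.32, and ZNF143, a zinc finger factor found at loop anchors in mammals, at 4.27 and 4.5.

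Cohesin genes were unequal, with the kleisin above the SMC subunit. RAD21, which closes the cohesin ring, stood at 52.6 and 42.3 RPKM, and SMC3, a core ATPase arm, at 19.9 and 21.6. STAG2, the DNA-binding HEAT-repeat subunit, was nearly identical in both samples at 41.07 and 41.08, and its paralogue STAG1 lay at 11.4 and 12.5. No neighbours in this order overlapped between the samples. RAD21 was 2.65 times SMC3 in replicate 1 and 1.96 times in replicate 2, and STAG2 was 3.61 and 3.28 times STAG1. SMC1B, the SMC1 paralogue of meiotic cohesin, held 8 and 5 reads on a model of 3796 bp, or 0.05 and 0.04 RPKM, with exact Poisson intervals of 0.0229 to 0.105 and 0.0141 to 0.101. SMC1A was not analysed here, so SMC1B does not give the SMC1 level of the cells.

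The factors that load, release and acetylate cohesin were present as well. Of 10 measured partners, 9 reached 1 RPKM in both samples, with a list median of 16.4. WAPAL, the release factor, stood at 41.8 and 44.6 RPKM, and HDAC8, the SMC3 deacetylase, at 32.8 and 39.4. The loader gene NIPBL lay at 17.8 and 18.5. At the low end, RAD21L1, a meiotic kleisin, was at 0.88 and 1.39, and the acetyltransferase gene ESCO1 at 12.2 and 10.4. Meiotic forms of both the SMC1 and the kleisin subunit were thus the lowest genes of their lists.

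All 7 condensin genes were above 10 RPKM in both samples. SMC2 and SMC4 are the shared ATPase arms, NCAPD2 and NCAPG belong to condensin I, and NCAPD3, NCAPG2 and NCAPH2 belong to condensin II. NCAPD2 was the highest at 33.5 and 40.3 RPKM, with NCAPG at 30.6 and 31.7 and SMC2 at 30.3 and 30.5. NCAPD3 followed at 22.6 and 25.3. SMC4 at 11.1 and 14.5, NCAPH2 at 10.8 and 14.4, and NCAPG2 at 11.7 and 11.2 formed a lower tier whose neighbours overlapped between the samples. Condensin I subunits were higher than their condensin II counterparts in both samples, NCAPD2 being 1.48 and 1.59 times NCAPD3 and NCAPG 2.61 and 2.83 times NCAPG2. NCAPD2 holds a small RNA gene with far more reads, described below, and its count may include some of these. The partner arms were unequal too, with SMC2 at 2.74 and 2.11 times SMC4. NCAPH was not analysed here.

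The SMC5/6 complex, which acts in DNA repair, had lower core levels than either cohesin or condensin. SMC6 stood at 8.24 and 8.59 RPKM and SMC5 at 5.89 and 6.38, and these ranges did not overlap. Of its non-SMC subunits, NSMCE2, a SUMO ligase, was at 38.6 and 25.2 RPKM, NSMCE1 at 20.1 and 18.1 and NSMCE4A at 12.9 and 13.6, so the 3 measured partners lay above both arms. The NSMCE2 model has only 315 bp.

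Of the SWI/SNF genes, SMARCE1, an HMG-box subunit, was the highest at 53.5 and 55.0 RPKM. The core subunit gene SMARCB1 stood at 19.5 and 25.3, and SMARCA2, the BRM ATPase, at 17.9 and 20.5, with ranges that overlapped. ARID2, which marks the PBAF form, was at 9.99 and 11.5. ARID1B and ARID1A, alternative subunits of the BAF form, were at 7.67 and 10.7 and at 6.78 and 9.74, so that ARID1A was 0.884 and 0.914 times ARID1B. The ARID1A model has 1868 bp and that of ARID1B 4851 bp. In reads not divided by length the mean ratio was 0.346, so the near equality rests on the division by length. The scaffold gene SMARCC1 lay at 8.83 and 11.8. The lowest were the accessory subunit genes SMARCD3 at 8.15 and 8.06 and SMARCD2 at 6.11 and 8.18. From ARID2 down to SMARCD2, each gene overlapped the next in the order, while ARID2 lay above ARID1A and both SMARCD genes in both samples. SMARCA4, SMARCC2 and SMARCD1 were not analysed here, so the balance of the alternative ATPases is not known from these values.

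Partners of SWI/SNF reached 1 RPKM in both samples for 7 of 9 measured genes. SS18 led them at 71.4 and 71.1 RPKM, and PHF10, a PBAF subunit, stood at 33.5 and 34.4. DPF3, a muscle and neural subunit in mammals, was at 0.42 and 0.34, and SS18L1, the neural paralogue of SS18, held 1 read and 0 reads.

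Among the ISWI and related ATPase genes, SMARCA5 stood far above the rest. SMARCA5, which encodes the ISWI motor SNF2H, was at 72.3 and 77.6 RPKM from 10231 and 8410 reads (74.95 ± 3.76, SD, n = 2), higher than 94% of the named genes. Its paralogue SMARCA1, the SNF2L motor, was at 4.94 and 5.30. SMARCA5 was thus 14.63 and 14.64 times SMARCA1. The annealing helicase gene SMARCAL1 lay at 13.1 and 12.1 and SMARCAD1, a remodeller of heterochromatin upkeep, at 5.42 and 5.89. Partner subunits of ISWI reached 1 RPKM in both samples for 7 of 8 measured genes. The histone chaperone gene RBBP4 was the highest at 94.4 and 89.4 RPKM, then POLE3, a histone-fold subunit, at 34.1 and 33.8. CECR2, a partner of gonads and nervous system in mammals, was under 1 at 0.28 and 0.40, and BAZ2B was the next lowest at 5.0 and 6.63.

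The CHD family ranged widely. CHD4, the ATPase of the NuRD repressor, led with 26.4 and 31.8 RPKM, and its paralogue CHD5, known as a neural gene, was last at 1.11 and 1.5, a ratio of 23.8 and 21.2. CHD4 holds a small RNA gene with far more reads, described below, and its count may include some of these. CHD9 at 14.3 and 17.5 and CHD2 at 11.6 and 16.4 overlapped each other. CHD1L, a remodeller recruited by poly(ADP-ribose), stood at 6.93 and 8.04. CHD7 at 2.81 and 3.97 and CHD6 at 1.88 and 2.59 were low but above 1 in both samples. CHD3 and CHD8 were not analysed here. A gene listed as CHDZ, which the RefSeq gene table of assembly GRCg7b gives as a synonym of CHD1, is no member by its symbol. It was at 20.8 and 24.1 RPKM on chromosome Z, between CHD4 and CHD9.

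NuRD subunits that work with CHD4 reached 1 RPKM in both samples for 8 of 8 measured genes, with a median of 25.2. After RBBP4, the deacetylase gene HDAC2 was next at 82.0 and 78.1 RPKM. The lowest were RBBP7 at 9.33 and 9.81 and the methyl-CpG-binding-domain gene MBD3 at 5.81 and 6.15.

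The remaining ARID genes, which encode AT-rich DNA-binding proteins outside SWI/SNF, fell into a moderate and a low tier. ARID5B, a coregulator, was at 8.84 and 11.3 RPKM, ARID4B at 7.80 and 9.60 and ARID4A, a retinoblastoma-binding corepressor, at 7.13 and 8.39. Neighbours among those 3 overlapped. ARID5A stood at 2.72 and 4.71 and ARID3B at 1.62 and 3.13, which also overlapped, and ARID3C at 0.16 and 0.36 from 7 and 12 reads.

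INO80 genes differed widely. The ATPase gene INO80 was at 11.2 and 15.7 RPKM, the subunit gene INO80C at 20.2 and 24.5 and INO80D at 1.13 and 1.78, with no overlap between them. Partners in the INO80, SRCAP and related complexes reached 1 RPKM in both samples for 9 of 9 measured genes. They were led by UCHL5, a deubiquitinase of INO80 and the proteasome, at 117 and 112 RPKM and ACTR6, an actin-related SRCAP subunit, at 114 and 101. DMAP1 at 6.89 and 8.35 and TRRAP, a scaffold of acetyltransferases, at 6.28 and 8.50 were lowest.

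**Figure D2:**
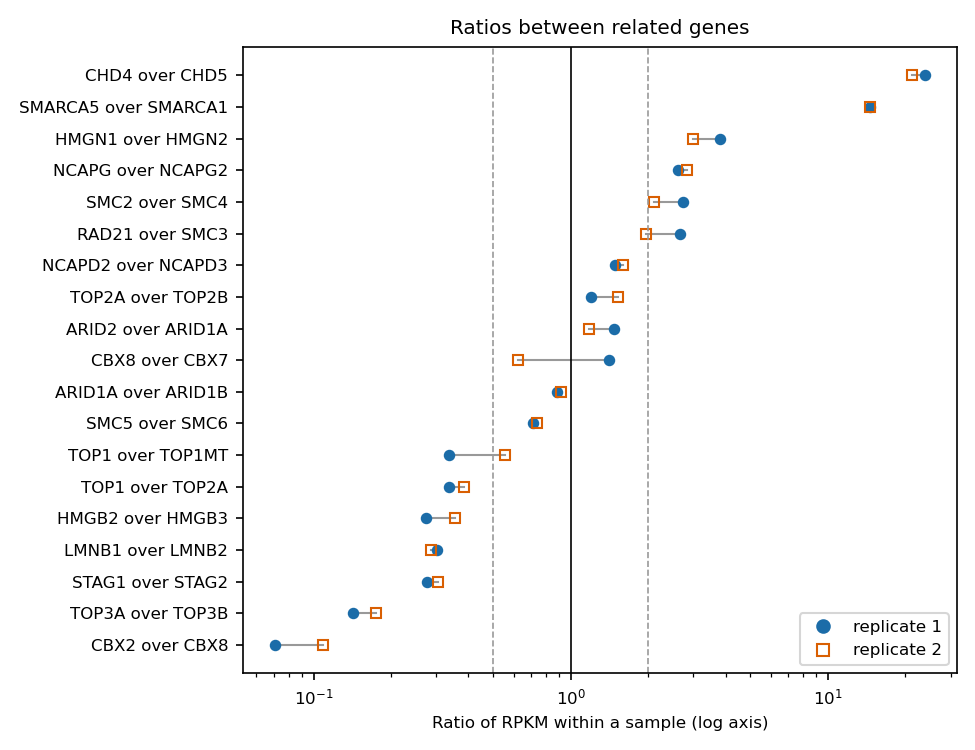
Ratio of RPKM within a sample (log axis) for 19 pairs of paralogues or partner subunits, in replicate 1 (filled circles) and replicate 2 (open squares). Dashed lines mark ratios of 0.5 and 2, and 11 pairs lie outside them in both samples.

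Of 41 pairs of paralogues or partners listed, 20 had both genes measured, and 12 of these differed at least 2-fold in the same direction in both samples. CBX8 over CBX7 was the pair that changed direction, at 1.41 in replicate 1 and 0.622 in replicate 2, from 30 to 51 reads per gene and sample. RAD21 over SMC3 and TOP1 over TOP1MT passed 2-fold in replicate 1 alone.

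Of the chromobox genes measured, 1 encodes an HP1 protein, and it was the highest. CBX3, which encodes the HP1 gamma protein of heterochromatin and gene bodies, was at 36.1 and 34.5 RPKM. Genes for Polycomb chromobox proteins, which read histone H3 lysine methylation for the PRC1 repressor, lay lower. CBX7 stood at 1.10 and 2.22, CBX8 at 1.55 and 1.38 and CBX2 at 0.11 and 0.15. CBX7 and CBX8 overlapped. CBX2 had 4 reads in each sample, with exact Poisson intervals of 0.0306 to 0.287 and 0.0399 to 0.375 RPKM. CBX1, CBX5 and CBX6 were not analysed here.

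CBX8 and CBX2 lie 8.37 kb apart on chromosome 18 in the deposited coordinates, and CBX2 was 0.0710 and 0.109 times CBX8. The other subunits of PRC1 had a list median of 4.13 RPKM, near the 4.48 of the named genes, and 8 of 10 measured genes reached 1 RPKM in both samples. PCGF6, a subunit of a variant PRC1, led at 36.7 and 37.8 RPKM, followed by PCGF5 at 12.1 and 13.4. RNF2, the catalytic ubiquitin ligase, stood at 6.02 and 5.38. PCGF2, the MEL18 subunit of PRC1, had 0 reads in replicate 1, a limit of 0.0959 RPKM, and 0 reads in replicate 2, a limit of 0.125 RPKM, and SCMH1 was at 0.89 and 1.67.

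Partners of HP1 and heterochromatin reached 1 RPKM in both samples for 4 of 5 measured genes. ADNP, a zinc finger and homeobox protein that binds HP1, was at 32.1 and 37.0 RPKM and ATRX, a remodeller that deposits histone H3.3, at 28.9 and 31.6. EHMT1, a histone H3 lysine methyltransferase, was at 9.54 and 12.6. SETDB1, another such enzyme, was at 0.49 and 0.57 on its longest model of 1379 bp, while a second model of 644 bp stood at 15.0 and 21.04, so its level is not settled by these values.

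The HMGB and HMGN genes were among the more abundant members, and HMGA2 was not. HMGB3, a DNA-bending HMG-box protein of blood progenitors in mammals, was at 133 and 101 RPKM, above 96.6% of the named genes. HMGB2, a family member linked to dividing cells, was at 36.2 and 36.0, so HMGB3 was 3.66 and 2.81 times HMGB2. The HMGB3 model has 313 bp and held 1647 and 961 reads against 1479 and 1124 for HMGB2. This order, and the place of HMGB3 among the named genes, thus rest on the division by length. A gene listed as HMG1, a RefSeq synonym of HMGB1 and no member by its symbol, was at 36.5 and 33.3, overlapping HMGB2.

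HMGN1, which binds nucleosomes and loosens compact chromatin, was at 120 and 107 RPKM (113 ± 8.93, SD, n = 2). Its relatives HMGN2 at 31.4 and 36.0 and HMGN3 at 31.8 and 30.1 overlapped each other. HMGN1 was 3.81 and 2.98 times HMGN2. HMGA2, an AT-hook protein of embryonic and transformed cells in mammals, was at 5.18 and 6.53, from 28 and 27 reads on a model of 136 bp, with exact Poisson intervals of 3.45 to 7.49 and 4.30 to 9.50. Reads of HMG genes may be shared with near-identical copies, and the sources used here do not give the counting of such reads. HMGA1 was not analysed here.

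Among the 3 lamina members, the gene of the lamin B receptor was the highest. LBR, an inner membrane protein that binds B-type lamins and HP1 and also acts as a sterol reductase, was at 114 and 107 RPKM (110 ± 4.71, SD, n = 2). LMNB2 stood at 59.4 and 62.7 and LMNB1 at 18.0 and 17.9, with LMNB2 at 3.30 and 3.51 times LMNB1. None of these ranges overlapped. LMNA, the gene of A-type lamins, was not analysed here. Nuclear envelope partners reached 1 RPKM in both samples for 7 of 8 measured genes. TMPO, a lamina protein also called LAP2, was at 93.8 and 96.5 RPKM, and ZMPSTE24, the protease of prelamin A, at 56.3 and 54.3. The giant linker genes to the cytoskeleton were lowest, SYNE1 at 1.23 and 1.44 and SYNE2 at 0.09 and 0.12.

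Among the topoisomerases, TOP2A, the form of dividing cells that separates entangled chromosomes, was at 23.7 and 27.5 RPKM. TOP2B, the form that resting cells also use, was at 19.8 and 18.0, so TOP2A was 1.19 and 1.53 times TOP2B. The mitochondrial enzyme gene TOP1MT was at 23.5 and 19.2 and overlapped TOP2B. The nuclear type I enzyme gene TOP1 was at 7.93 and 10.6, or 0.335 and 0.386 times TOP2A and 0.337 and 0.553 times TOP1MT. TOP3B stood at 13.54 and 13.47 and TOP3A, which resolves recombination intermediates with BLM, at 1.92 and 2.36. Partners of topoisomerases reached 1 RPKM in both samples for 6 of 6 genes, from RMI2 at 14.2 and 12.9 and TDP1 at 12.2 and 10.6 to RMI1 at 4.25 and 4.51 and PIF1 at 3.27 and 3.49.

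Over all lists, 73 of 81 measured partner genes reached 1 RPKM in both samples, or 90.1%, against 61.1% of the named genes, with a median of 13.2 RPKM. This is close to the median of the members. The lowest list median was that of PRC1, and the medians of the heterochromatin and NuRD lists were the highest, at 25.5 and 25.2.

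**Figure D3:**
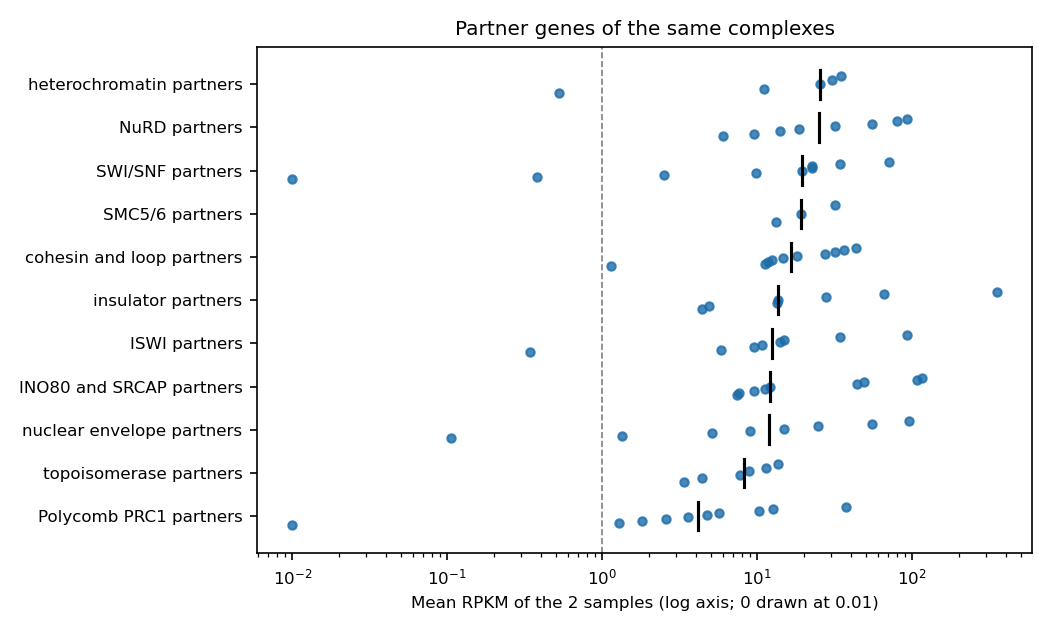
Mean RPKM of the 2 samples (log axis) of each partner gene, by the complex it works with, with list medians as black bars and 1 RPKM as the dashed line. PRC1 partners have the lowest list median at 4.13, and values of 0 are drawn at 0.01.

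Several members share their position with other transcripts. Small RNA genes lie inside the span of 4 members on the same strand. How many of all genes hold such a small RNA was not computed. NCAPD2 holds snoU85, a guide RNA of Cajal bodies, at 4158 and 4209 RPKM, and CHD4 holds SCARNA11, of the same class, at 9347 and 10403. The small RNAs exceeded their host genes by 124 and 105 times and by 354 and 327 times. They held 52840 and 40951 reads and 51965 and 44284 reads, more than the 5894 and 5418 reads of NCAPD2 and the 6410 and 5924 of CHD4, so the host counts cannot include all of these reads. Whether they include some is not known, so the levels of NCAPD2 and CHD4 and their ratios to other genes carry this limit. NCAPD2 and CHD4 are themselves 52.2 kb apart on chromosome 1, and TOP2A and SMARCE1 44.99 kb apart on chromosome 27.

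SMC4 carries the precursors of the microRNAs gga-mir-15b, at 42.5 and 38.0 RPKM, and gga-mir-16-2, at 3.52 and 3.54 from 13 and 10 reads. These come from 1 cluster inside the same host, at 3.85 and 2.63 times and at 0.318 and 0.245 times the level of SMC4. CHD2 holds gga-mir-1611, with 1 and 3 reads. On the opposite strand, a short gene listed by its identifier alone inside SMARCA2 stood at 82.9 and 76.1 RPKM from 853 and 599 reads. The sources used here do not give whether counting used strand, so these reads and those of SMARCA2 may not be fully separated.

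Divergent starts within 1000 bp were found for 7 members. The share over all genes was not computed, so this count is not set apart from the background. CBX3 starts 107 bp from HNRNPA2B1, an RNA-binding protein gene, which stood at 61.3 and 59.9 RPKM, or 1.70 and 1.74 times CBX3. NCAPD2 starts 114 bp from MRPL51, a mitochondrial ribosomal protein gene at 97.2 and 86.1 RPKM. SMC1B starts 357 bp from RIBC2, a gene of cilia, and both were near 0, RIBC2 with 2 reads in each sample. SMC6 starts 474 bp from GEN1, a resolvase of DNA repair, at 19.2 and 20.1 RPKM, or 2.33 and 2.34 times SMC6.

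Between the samples, the members lay close, with a tilt toward replicate 2. Of 58 members with at least 100 reads in both samples, 55 were within 1.5-fold, 3 were at least 1.5-fold higher in replicate 2, or 5.17%, and 0 were so in replicate 1. Over all 7788 genes with as many reads, 4.94% passed that fold toward replicate 2 and 0.886% toward replicate 1, so the members' share was near the background. The 3 members were ARID3B, ARID5A and INO80D, at 1.93, 1.73 and 1.58 times, named after their values were seen. They held 118, 127 and 124 reads in replicate 1, near the filter of 100. Replicate 2 had fewer reads in total, and at equal RPKM all 3 would have fallen under the filter there. The filter thus tilts these counts toward replicate 2, for the members and for all genes. A difference between 2 single samples has no replicate check, and in bulk RNA fewer cells of a type and less RNA per cell cannot be told apart.

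In direction, 43 of the 58 members were higher in replicate 2, or 74.1%, against 62.2% of all genes with as many reads. The background share was 50.7% for models under 1000 bp and 85.0% for those of 4000 bp or more. Of the 58 members, 23 have such long models. By group, with members of at least 100 reads in both samples, 7 of 7 CHD genes, 5 of 5 ARID genes outside SWI/SNF, 3 of 3 INO80 genes, 8 of 9 SWI/SNF genes and 6 of 7 condensin genes were higher in replicate 2. Their median log2 ratios were 0.43, 0.35, 0.49, 0.37 and 0.16. ARID3B, ARID5A and INO80D are in these counts. Each passed the filter of 100 reads only because it was higher in replicate 2, so its direction was not free. The count was 3 of 4 for cohesin and for the ISWI group, 2 of 2 for SMC5/6 and 3 of 6 for the topoisomerases. It was 1 of 3 for the lamina, 1 of 3 for HMGN and 0 of 2 for HMGB, with median log2 ratios of -0.01, -0.08 and -0.20. Differences between these groups were not tested, and scaling by the median ratio over genes lowers every log2 ratio alike by 0.07. With that scaling, 38 of the 58 members were higher in replicate 2. Among members with a mean of at least 5 RPKM, the largest differences toward replicate 2 were those of ARID1A at 1.44 times, CHD2 at 1.42 and INO80 at 1.40. Toward replicate 1 they were those of HMGB3 at 1.31 times, RAD21 at 1.24 and TOP1MT at 1.23.

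**Figure D4:**
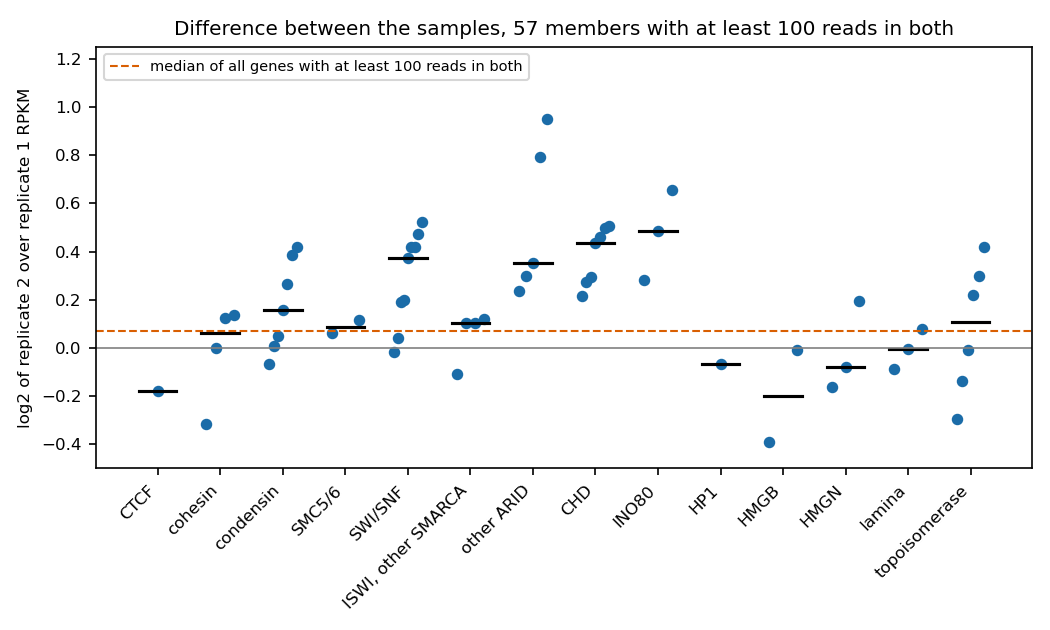
log2 of replicate 2 over replicate 1 RPKM for 57 of the 58 members with at least 100 reads in both samples, by role group, with group medians as black bars and the median of all 7788 such genes, 0.07, as the dashed line. Group medians run from -0.20 for HMGB to 0.49 for INO80. ARID3B, ARID5A and INO80D passed the filter of 100 reads only because they were higher in replicate 2.

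Over all genes the difference moved with level and model length. Genes with a mean under 5 RPKM had a median log2 ratio of 0.27 and those of 50 RPKM or more a median of -0.05. Members followed, with 0.50 for 7 members under 5 RPKM, 0.23 for 13 members between 5 and 10 and -0.02 for 6 members of 50 or more. By model length, the median over all genes rose from 0.00 under 1000 bp through 0.03 and 0.09 to 0.22 at 4000 bp or more. The medians of the members had no such order, with 0.10 for 4 members under 1000 bp, 0.40 for 8 between 1000 and 2000 bp, 0.05 for 23 between 2000 and 4000 bp and 0.26 for 23 of 4000 bp or more. Higher in replicate 2 were 22 of the 23 members of 4000 bp or more, against 85.0% of all such genes. Between 2000 and 4000 bp it was 13 of 23 members, against 67.4%. On chromosomes 1 to 8 and Z the median was 0.05 over all genes and 0.10 over 37 members. Over the rest, with chromosomes 16 and W and the mitochondrial genome left out, it was 0.12 over all genes and 0.37 over 21 members. The part of level, length, chromosome and the read filter in the members' tilt toward replicate 2 was not tested.

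**Figure D5:**
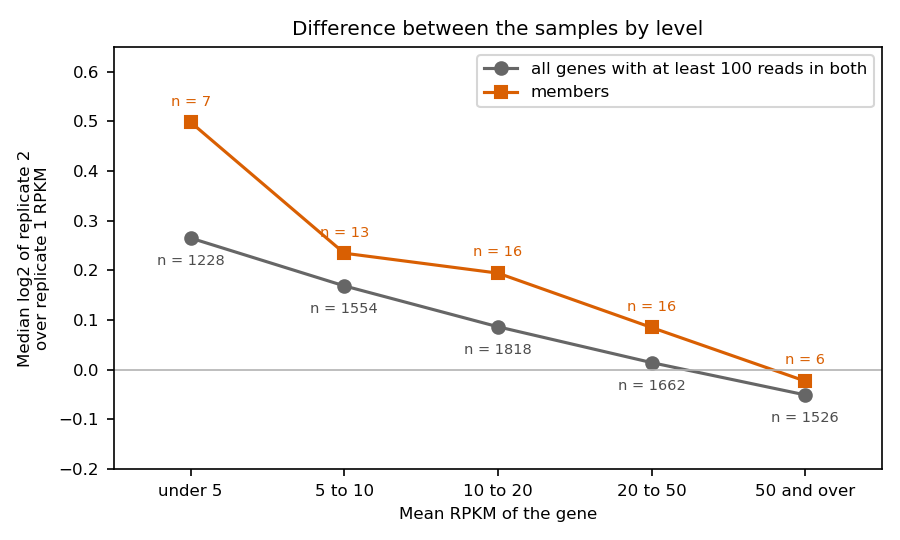
Median log2 of replicate 2 over replicate 1 RPKM by mean RPKM of the gene, for all genes with at least 100 reads in both samples (grey circles) and for the members among them (orange squares), with the number of genes beside each point. Both medians are highest under 5 RPKM, at 0.27 and 0.50, and lowest at 50 RPKM and over, at -0.05 and -0.02. Under 5 RPKM the filter of 100 reads favours genes that are higher in replicate 2.

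CTCF was 0.883 times as high in replicate 2 as in replicate 1, with an exact binomial interval of 0.808 to 0.966. These intervals are at 95% and, since the labels name no molecular identifiers to mark PCR copies, cover counting error only. For the members with few reads the interval was wide, as for CBX7 at 2.02 times with 1.28 to 3.23, and for ARID3C at 2.25 times with 0.813 to 6.71.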

How the data were processed

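Per the labels' protocols, total RNA of 6C2 cells was treated with DNase, depleted of ribosomal RNA with RiboMinus and cut with RNase III, and libraries were prepared by the SOLiD Total RNA-Seq kit. The sources used here give no aligner, counter, genome build or annotation, and coordinates are as deposited, without a build. Per the file headers, the authors deposited whole read counts and RPKM for each gene in each sample. The deposited RPKM was used throughout, and the deposited counts gave depth, intervals and limits at 0 reads. Of 17934 genes, 1470 with an empty symbol field had 0 reads in both samples and were left out. Over genes with at least 10 reads, the chi-square between samples was 48.6 per degree of freedom, above counting noise, and both were kept.

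Members and lists were chosen with earlier results of these data known. Partner lists came from textbook membership, and their symbols were matched as listed, which found 81 of 123. Genes were named by role group, with the 2 highest and 2 lowest of each partner list, and with the 3 members of at least 5 RPKM that differed most each way between samples. A few more are named for their role, and 1 member is in the counts and medians but is not reported here. Neighbours in an order were called apart where the ranges of the 2 samples did not overlap. Intervals are exact at 95%, limits at 0 reads are 3 reads, and both cover counting error only. The steps were tested on simulated data with counting noise alone, which is less than the noise between these samples. Small RNAs and mitochondrial genes held 39.4% and 40.3% of the reads, which lowers the RPKM of all other genes. Alternatives were each replicate left out, other thresholds, TPM, means of log2(RPKM + 1) and log2(RPKM + 0.1), a library total without small RNAs, and unscaled reads. Values were computed in Python 3.11.15 by means of pandas 2.3.3, numpy 2.4.6, matplotlib 3.10.9 for the plots and scipy 1.17.1 for the intervals.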

Additional observations from a re-analysis of the deposited data

How the results depend on the processing

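The count of 61 detected members was 61 without replicate 1, without replicate 2 and at a threshold of 0.5 RPKM, and 51 at 5 RPKM. The median level of 12.3 RPKM ranged from 11.3 to 12.3 when a replicate was left out. It was 3.81 in TPM and 20.3 with small RNAs and mitochondrial genes left out of the library total, both by construction of the scale. It was 13.1 over members with at least 100 reads, an alternative added after the data were seen, as was TPM for the difference between samples. Members with a mean of at least 10 RPKM numbered 35 to 41 with a replicate left out, detected partners 73 to 75, and pairs apart by 2-fold 12 to 14. In reads not divided by length, HMGB2 over HMGB3 turned from 0.315 to 1.03. ARID1A over ARID1B moved to 0.346, ARID2 over ARID1A to 4.32, TOP1 over TOP1MT to 0.722 and TOP1 over TOP2A to 0.240, since the model lengths differ. Median scaling and TPM shift all log2 ratios between samples alike, by -0.07 and -0.01, and so bear on no order of genes. They do bear on the count by direction. In RPKM 43 of 58 members were higher in replicate 2, against 38 under median scaling and 41 in TPM. All of these counts follow the filter of 100 reads, which favours genes higher in replicate 2. Depth limits SMC1B, CBX2, ARID3C, CBX7, CBX8 and HMGA2, each under 100 reads. No paired analysis was possible because the series has 1 group.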
